A study of Mus musculus with 4 samples.

Results

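The genes described here encode the proteasome: the 20S core particle, its interferon-inducible immunosubunits, the 19S cap, the activators and the assembly factors. They were taken as the 50 of 17039 rows of the deposited expression table whose symbol begins with Psma to Psmg followed by a digit. One of them, Psmc3ip, matches the pattern by name only. It encodes a meiotic recombination factor and is given apart, which leaves 49 proteasome genes. RNA had been sequenced from T cells of the spleens of C57BL/6 mice, taken about a month after a virus was injected into muscle. In the AAV-IL-27 group (2 mice, replicates 1 and 3) a recombinant adeno-associated virus expressed interleukin-27, and in the AAV-ctrl group (2 mice, replicates 1 and 3) it was a control virus. The series title calls the cells CD8+, the cell type field calls them splenic T cells, and they were separated by magnetic sorting. Age, sex and the promoter of the transgene are not in the labels used here. The comparison addresses which proteasome genes differ in these cells when interleukin-27 is delivered from muscle.

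The proteasome degrades proteins tagged with ubiquitin. Its 20S core is a barrel of alpha rings (Psma) around beta rings (Psmb), and the beta subunits Psmb5, Psmb6 and Psmb7 carry the cutting sites. The 19S cap recognises and unfolds tagged proteins with a ring of ATPases (Psmc) and a set of other subunits (Psmd). Interferon-gamma, in part through IRF1, induces the immunosubunits Psmb8, Psmb9 and Psmb10, which are built into new cores in the places of Psmb5, Psmb6 and Psmb7. It also induces PA28 (Psme1 and Psme2), a ring that can cap the core in place of the 19S cap. The peptides that result are a source for MHC class I molecules, and lymphocytes are known to carry immunoproteasomes without stimulation.

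The libraries held 15742523 to 16182453 expected counts, and 12887 genes passed the filter on low counts. Of the T cell markers 14 of 17 were in the table and all 14 were detected in every library. Their summed level was 5767 to 6525 CPM (counts scaled to library size) in AAV-IL-27 and 5560 to 5675 CPM in AAV-ctrl. Cd8a, the CD8 alpha chain, had 1305 and 1117 CPM in AAV-IL-27 and 991 and 1036 CPM in AAV-ctrl. Markers of other cells were present as well. The 16 neutrophil markers summed to 882 and 1436 CPM in AAV-IL-27 replicates 1 and 3, against 24.3 and 15.6 CPM in AAV-ctrl, where Ly6g, Fcnb, Ms4a3 and Prtn3 each stood at 0 in 1 library. The 12 B cell markers summed to 2575 and 3532 CPM, against 4934 and 4427 CPM, and 5 of them fell. The 16 macrophage and dendritic cell markers summed to 1739 to 1913 CPM, against 1782 to 1886 CPM, a sum carried by H2-Ab1, which B cells also express. Within that list Vcam1 (-2.04), Mertk (-1.76), Cd5l (-1.45), Cd209a (-1.33) and Adgre1 (-0.98) fell on the log2 scale, Cd68 (0.39) rose and 10 did not pass. The 10 cell cycle markers, which belong to no cell type, summed to 1302 and 1354 CPM, against 336 and 322 CPM. The 11 NK cell markers, of which 7 fell while Eomes, Gzma, Klrk1 and Nkg7, which effector T cells also express, rose, summed to 889 and 821 CPM, against 559 and 551 CPM. The 9 erythroid markers in the table summed to 24.5 and 45.1 CPM, against 60.0 and 32.7 CPM. In bulk samples, fewer cells of a type and less RNA per cell cannot be told apart.

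Most proteasome genes were higher in AAV-IL-27. The median log2 fold change was 0.88 for the 3 immunosubunits and 0.46 for the 14 constitutive core genes. It was 0.25 for the 20 Psmc and Psmd genes. Those 20 include 3 chaperones that are not part of the complete 19S cap (Psmd5, Psmd9 and Psmd10), with a median of 0.17. By edgeR's quasi-likelihood test at an adjusted p of 0.05, 35 of the 49 members tested rose, none fell and 14 did not pass, where 21.3% of all 12887 genes rose and 17.7% fell. These 49 include Psmc3ip and lack Psma8, which the filter left out. Without Psmc3ip, 35 of 48 rose and 13 did not pass, with a median log2 fold change of 0.36. Psmb11 and Psmd11 alone had a log2 fold change below 0, at -0.05 and -0.03, and the other 47 of 49 lay above 0, against 45 with upper-quartile factors or library size alone and 43 scaled to the T cell list. The median log2 fold change of the 49 was 0.36, against -0.01 for all genes. The libraries of the groups did not overlap in CPM for 45 of the 49, against 71.5% of all genes. Without Psmc3ip the proteasome genes took 0.468% and 0.462% of all counts in the AAV-IL-27 libraries, against 0.357% and 0.351% in AAV-ctrl. Many of the markers listed above also differed between the groups, in both directions, and their part in this rise was not tested.

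The number of members that rose depended on the scaling, and it was lower with a control library left out, as was the number over all genes. Scaled to the summed counts of the T cell markers, the median of all genes moved to -0.13. On this scale 1516 of all genes rose, against 2745 under TMM. The markers themselves were not level: under TMM 8 of the 14 rose, 2 fell and 4 did not pass, with a median of 0.22. On the T cell scale 15 members rose: Psmb8, Psmb9, Psmb10, Psme1, Psme2, Psma1, Psma2, Psma4, Psma5, Psma7, Psmb2, Psmb3, Psmb4, Psmd2 and Psmd14. The median of the 49 was then 0.24. Of all genes called, 54.6% were higher under TMM, 44.2% with upper-quartile factors, 44.3% with library size alone and 35.9% with the T cell list. With upper-quartile factors or library size alone, 31 members rose, and Psmc2, Psmc4, Psmc5 and Psme3 did not pass. Of all genes, 2362 rose with upper-quartile factors and 2363 with library size alone. Without AAV-ctrl replicate 1, 26 members rose, and without AAV-ctrl replicate 3, 27 did.

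**Figure D1:**
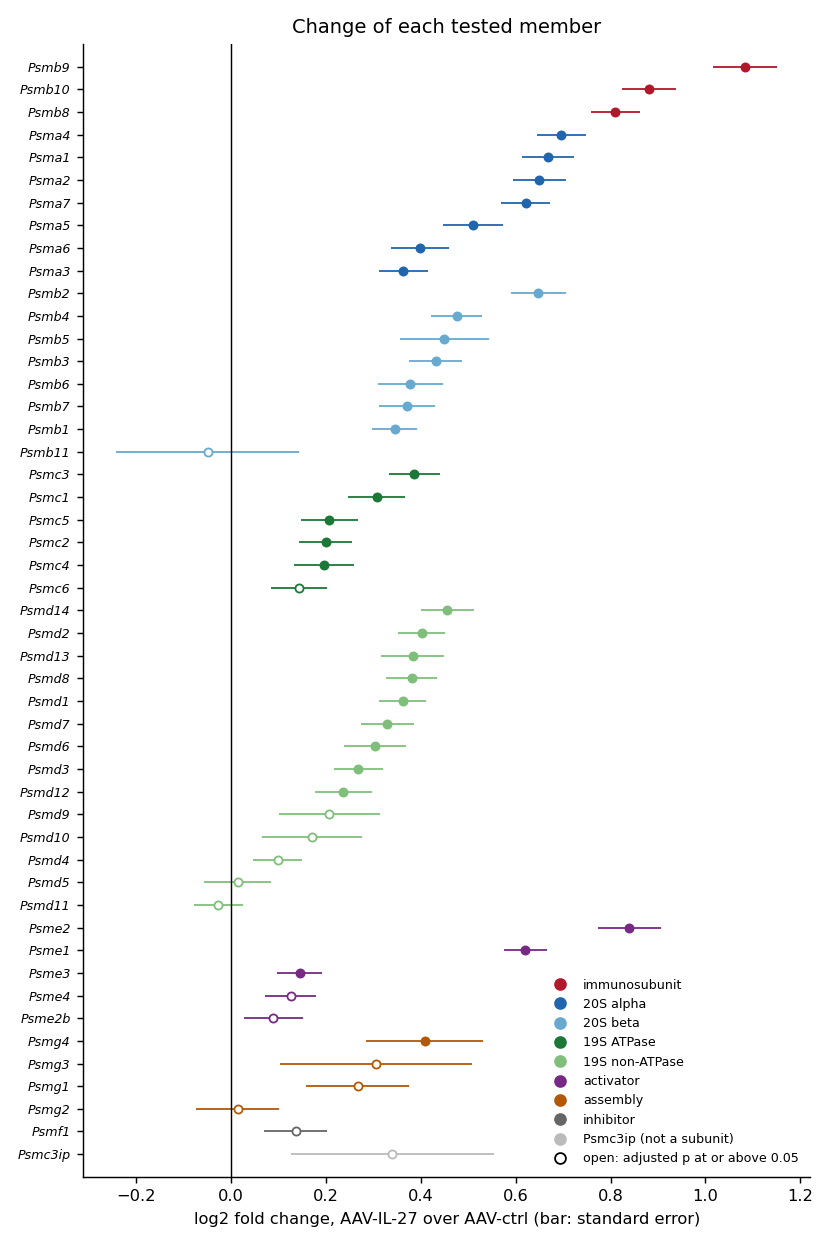
The log2 fold change (AAV-IL-27 over AAV-ctrl, horizontal axis) of each of the 49 tested members, with its standard error as a bar, grouped by role; filled points passed an adjusted p of 0.05 and open points did not. The immunosubunits lie at 0.81 to 1.08, the alpha subunits at 0.36 to 0.70 and the 19S ATPases at 0.14 to 0.39.

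All 3 immunosubunits rose, where 21.3% of all genes rose, and Psmb9 rose most of all members. Psmb9, the counterpart of Psmb6, had 214 and 190.5 CPM in AAV-IL-27 replicates 1 and 3, against 98.8 and 92.1 CPM in AAV-ctrl. Its log2 fold change was 1.08 ± 0.067 (SE, edgeR adjusted p = 4.75e-06), a 2.12-fold difference. Psmb10, the counterpart of Psmb7, had 146 and 139 CPM, against 80.4 and 74.6 CPM in AAV-ctrl (0.88 ± 0.057, adjusted p = 4.46e-06). Psmb8, the counterpart of Psmb5, had 319 and 298 CPM, against 177 and 175 CPM in AAV-ctrl (0.81 ± 0.052, adjusted p = 3.91e-06). Both AAV-IL-27 libraries lay above both AAV-ctrl libraries for each of the 3, where 71.5% of all genes did not overlap between groups.

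Psmb8 and Psmb9 lie in the MHC region of chromosome 17 beside the peptide transporter genes Tap1 and Tap2, in the order Psmb9 (34182030 to 34187330), Tap1 (34187556 to 34197225), Psmb8 (34198195 to 34201454) and Tap2 (34204479 to 34216321) on GRCm38.p6. All 4 genes of this block rose, where 21.3% of all genes rose, and Tap1 and Tap2 were added after their values were seen. Tap1 had 663 and 589 CPM in AAV-IL-27, against 339.7 and 316 CPM in AAV-ctrl (0.93 ± 0.066, adjusted p = 1.45e-05), and Tap2 had 353 and 329 CPM, against 215 and 206 CPM (0.70 ± 0.054, adjusted p = 1.37e-05). Psmb9 and Tap1 are read away from each other from starts 226 bases apart, so their promoter windows share 275 bases. Exons of Psmb9 and Tap1 overlap on opposite strands in GENCODE M21, and no source used here says whether counting was stranded, so reads in that overlap could belong to either gene. Psmb10 lies apart on chromosome 8 (105935728 to 105938392).

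Promoter windows from RefSeq (build GRCm38.p6) run from 250 bases before to 50 bases after the start of a gene, and 42 of the 50 members matched one by NCBI Gene number. Psma8, Psmb1, Psmb2, Psmb7, Psmc3, Psmd3, Psmd7 and Psmg2 had none. Shown here are the window that Psmb9, the most changed member, shares with Tap1, and 3 windows that hold letters tied to interferon signalling or to the basal control of proteasome genes. In the Psmb9 window (chr17:34187281-34187580, minus strand) capitals mark the 225 bases between the starts of Tap1 and Psmb9. In the Psmb8 window (chr17:34197945-34198244, plus strand) they mark a match to the letters TTCNNNGAA of the gamma-activated site (GAS), known from promoters that interferon-gamma induces. In the Psme1 window (chr14:55578244-55578543, plus strand) they mark a match, on the opposite strand, to the core of the interferon-stimulated response element, read by IRF proteins and searched as GAAA, 2 bases of any kind and GAAA. In the Psmb6 window (chr11:70525107-70525406, plus strand) they mark a match to the core letters TGACNNNGC of the antioxidant response element, to which the factor encoded by Nfe2l1 binds.
Psmb9: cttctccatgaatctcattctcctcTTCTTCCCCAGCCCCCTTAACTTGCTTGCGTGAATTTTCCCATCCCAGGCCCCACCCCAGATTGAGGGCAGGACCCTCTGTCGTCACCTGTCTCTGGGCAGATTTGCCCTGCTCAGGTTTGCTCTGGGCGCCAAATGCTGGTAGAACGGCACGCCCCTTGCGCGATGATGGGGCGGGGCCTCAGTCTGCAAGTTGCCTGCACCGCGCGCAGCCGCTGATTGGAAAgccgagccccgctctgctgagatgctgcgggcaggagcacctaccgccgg
Psmb8: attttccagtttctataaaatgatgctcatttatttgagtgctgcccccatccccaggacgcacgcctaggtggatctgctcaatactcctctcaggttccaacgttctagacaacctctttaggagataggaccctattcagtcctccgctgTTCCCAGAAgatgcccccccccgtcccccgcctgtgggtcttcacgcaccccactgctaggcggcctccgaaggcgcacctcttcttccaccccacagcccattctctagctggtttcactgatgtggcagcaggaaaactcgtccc
Psme1: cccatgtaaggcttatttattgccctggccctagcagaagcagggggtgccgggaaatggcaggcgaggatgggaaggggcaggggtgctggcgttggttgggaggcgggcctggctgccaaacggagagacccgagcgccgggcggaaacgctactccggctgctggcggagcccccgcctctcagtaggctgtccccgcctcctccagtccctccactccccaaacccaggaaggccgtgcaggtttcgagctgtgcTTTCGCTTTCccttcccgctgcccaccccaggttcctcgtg
Psmb6: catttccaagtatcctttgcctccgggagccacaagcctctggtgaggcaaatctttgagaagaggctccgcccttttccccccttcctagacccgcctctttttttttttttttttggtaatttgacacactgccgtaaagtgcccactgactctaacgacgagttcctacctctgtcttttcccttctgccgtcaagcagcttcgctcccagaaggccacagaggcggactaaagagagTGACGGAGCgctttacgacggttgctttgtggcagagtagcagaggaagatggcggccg

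Both strands of every window were searched for these letters. A member counted once if any of its windows matched, and Psmc2, Psma6 and Psme2 had 2 windows each. The share of all windows counts each window, so the 2 shares differ in unit. GAS letters were found for 3 of the 42 members (7.14%), Psmb8, Psmd2 and Psmg1, and in 8.3% of all 32851 windows. They read the same on both strands and were counted as 1 match. The response element core was found for Psmb3, Psmd4, Psmd9, Psme1 and Psmg4, 5 of 42 (11.9%), against 3.44% of all windows. The antioxidant core was found for Psmb5, Psmb6, Psmc6, Psmd9, Psmd12 and Psme4, 6 of 42 (14.3%), against 12.4% of all windows. No match of one kind overlapped a match of another in a member's window. Of the 3 immunosubunits, Psmb8 held the GAS letters, and none held either of the other motifs. A match is a description of letters and not a site.

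The constitutive catalytic subunits rose too, by smaller factors. Psmb5, which cuts after hydrophobic residues, had 39.1 and 32.9 CPM in AAV-IL-27 replicates 1 and 3, against 26.3 and 26.4 CPM in AAV-ctrl (0.45 ± 0.094, adjusted p = 0.00496). Psmb6, which cuts after acidic residues, had 62.5 and 60.2 CPM, against 49.4 and 45 CPM (0.38 ± 0.069, adjusted p = 0.00237). Psmb7, with trypsin-like activity, had 71.6 and 71.8 CPM, against 54.2 and 56.8 CPM (0.37 ± 0.059, adjusted p = 0.00107). For all 3, both AAV-IL-27 libraries lay above both AAV-ctrl libraries, where 71.5% of all genes did not overlap between groups. Psmb5 lost its call with either control library left out: leaving out AAV-ctrl replicate 1 gave an adjusted p of 0.0549 and leaving out AAV-ctrl replicate 3 one of 0.0517, with log2 fold changes of 0.44 and 0.45. With the T cell list as the scale none of the 3 passed (Psmb5 had an adjusted p of 0.0504, Psmb6 of 0.112 and Psmb7 of 0.11).

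**Figure D2:**
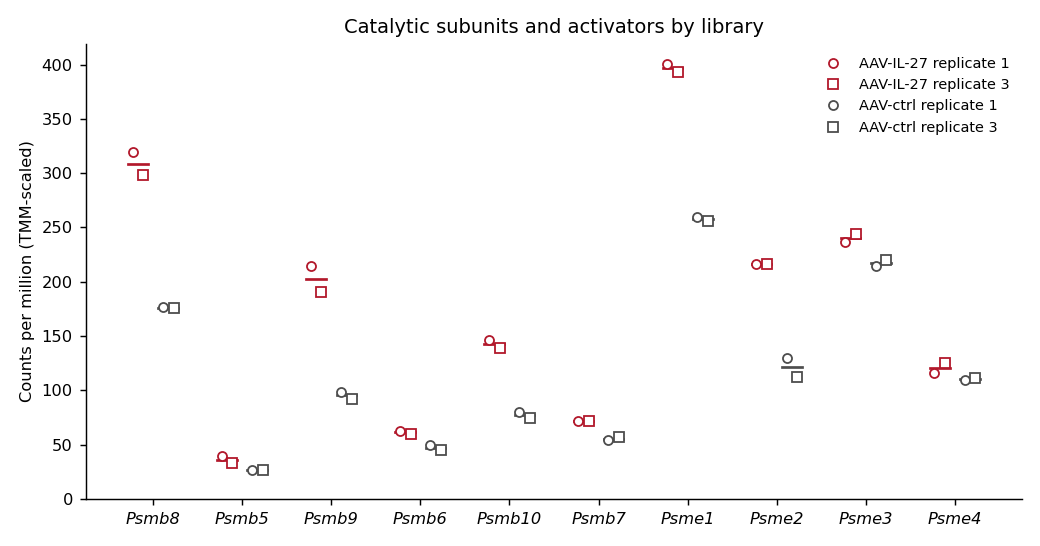
CPM (TMM-scaled, vertical axis from 0) of the catalytic subunits, each immunosubunit beside its constitutive counterpart, and of the activators; each point is a library and each line a group mean over 2 libraries. Psmb9 stands at 214 and 190.5 CPM in AAV-IL-27 and 98.8 and 92.1 CPM in AAV-ctrl, while Psme4 lies at 116 and 125 CPM and 109 and 111 CPM.

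Set against their counterparts within each library, per gene length (FPKM), all 3 immunosubunits stood above them in AAV-IL-27, while in AAV-ctrl Psmb8 and Psmb9 did and Psmb10 was near its counterpart. The FPKM of Psmb8 was 5.74 and 6.38 times that of Psmb5 in AAV-IL-27, against 4.73 and 4.67 times in AAV-ctrl. The FPKM of Psmb9 was 4.35 and 3.99 times that of Psmb6, against 2.52 and 2.55 times. The FPKM of Psmb10 was 1.48 and 1.44 times that of Psmb7, against 1.05 and 0.932 times. Both AAV-IL-27 libraries lay above both AAV-ctrl libraries in each ratio. The mean log2 ratio was higher in AAV-IL-27 by 0.36 for Psmb8 to Psmb5, 0.72 for Psmb9 to Psmb6 and 0.57 for Psmb10 to Psmb7. Such a ratio does not depend on how libraries are scaled. An exact permutation test, two-sided, gave p = 0.333 for each of the 3, which is the smallest p that 2 libraries against 2 allow, so the design cannot pass 0.05 here. Psmb8 + Psmb9 + Psmb10 summed to 3.50 and 3.41 times Psmb5 + Psmb6 + Psmb7 in AAV-IL-27 and 2.38 and 2.30 times in AAV-ctrl, a sum that was added after the data were seen.

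PA28 rose and the other activators rose less or did not pass. Psme1, its alpha subunit, had 400.2 and 393 CPM in AAV-IL-27 replicates 1 and 3, against 259.7 and 256 CPM in AAV-ctrl (0.62 ± 0.046, edgeR adjusted p = 1.03e-05). Psme2, its beta subunit, had 217 CPM in each AAV-IL-27 library, against 129.7 and 112 CPM in AAV-ctrl (0.84 ± 0.067, adjusted p = 2.52e-05). Both genes lie on chromosome 14, Psme1 at 55578494 to 55581527 and Psme2 at 55587440 to 55591101. Per library, the FPKM of Psme1 + Psme2 was 2.08 times that of Psmc1 to Psmc6 summed in each AAV-IL-27 library, against 1.56 and 1.48 times in AAV-ctrl (log2 difference 0.45, exact permutation p = 0.333, again the smallest possible).

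Psme3, the nuclear PA28 gamma, had 237 and 244 CPM in AAV-IL-27, against 215 and 220.1 CPM in AAV-ctrl (0.14 ± 0.048, adjusted p = 0.0375). Its libraries did not overlap, but the call was lost on leaving out AAV-ctrl replicate 1 (adjusted p = 0.255), AAV-ctrl replicate 3 (0.152) or AAV-IL-27 replicate 3 (0.088), and by DESeq2 (0.128). Psme4, the nuclear activator PA200, had 116 and 125 CPM, against 109 and 111 CPM, and did not pass (0.13 ± 0.055, adjusted p = 0.0981), though it did without AAV-IL-27 replicate 1 (adjusted p = 0.0287). Psme2b, a near-copy of Psme2 on chromosome 11, had 62.5 and 66.2 CPM, against 59.2 and 61.8 CPM (0.09 ± 0.062, adjusted p = 0.284). Reads shared by Psme2 and Psme2b could be assigned to either in counting, so both values are uncertain. Exons of Psme2b also overlap, on the same strand, exons of 9930111J21Rik1, another gene in the table. Psmf1, the inhibitor PI31, had 44.6 and 43.1 CPM, against 40.3 and 39.4 CPM (0.14 ± 0.066, adjusted p = 0.135).

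**Figure D3:**
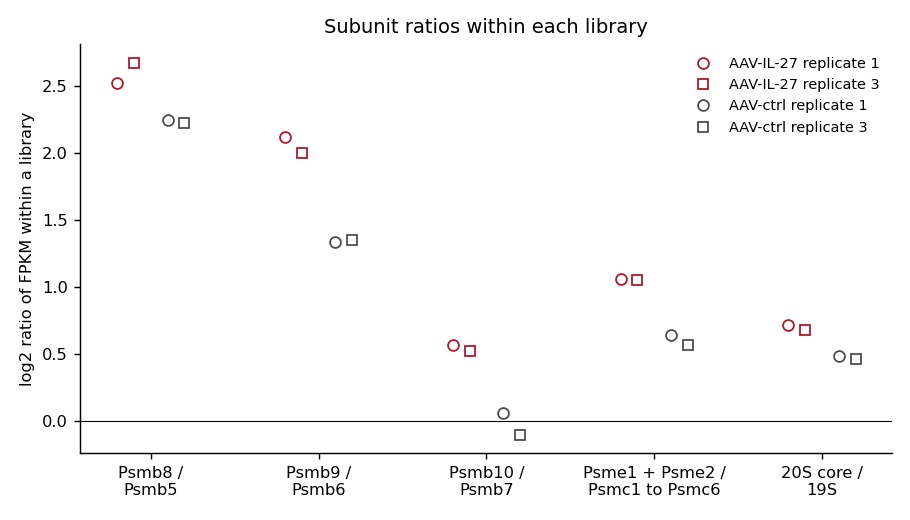
The log2 ratio of FPKM within each library (vertical axis) for each immunosubunit to its counterpart, PA28 to the 19S ATPases, and the constitutive 20S core to the 19S cap; each point is a library. In all 5 ratios both AAV-IL-27 points lie above both AAV-ctrl points, for Psmb9 to Psmb6 at 2.12 and 2.00 against 1.33 and 1.35.

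All 7 ubiquitous alpha subunits, which form the outer rings and the gate of the core, rose, where 21.3% of all genes rose. They rose by 0.36 to 0.70 on the log2 scale. Psma4 rose most of them, with 141 and 146 CPM in AAV-IL-27 replicates 1 and 3, against 86.9 and 89.8 CPM in AAV-ctrl (0.70 ± 0.051, adjusted p = 9.78e-06). Psma1 followed with 109 and 104 CPM, against 67.7 and 66.5 CPM (0.67 ± 0.055, adjusted p = 1.95e-05). Psma3 rose least, with 114 and 112 CPM, against 89.99 and 86.3 CPM (0.36 ± 0.052, adjusted p = 0.000608), and Psma6 had 97.6 and 95.2 CPM, against 76.7 and 69.6 CPM (0.40 ± 0.061, adjusted p = 0.000917). For each of these 4 genes the groups did not overlap, as for 71.5% of all genes. Psma2, Psma5 and Psma7 rose by 0.51 to 0.65. Psma8, a testis form of an alpha subunit, was left out by the filter, with 9 and 2 expected counts in AAV-IL-27 and 4 and 3 in AAV-ctrl.

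The structural beta subunits Psmb1 to Psmb4 rose as well. Psmb2 had 83.4 and 83.8 CPM in AAV-IL-27, against 54.8 and 51.9 CPM in AAV-ctrl (0.65 ± 0.058, adjusted p = 3.56e-05), and Psmb4 had 92.6 and 91.6 CPM, against 67.5 and 65.0 CPM (0.48 ± 0.054, adjusted p = 0.000149). Psmb1 rose least of the 4, with 187 and 185 CPM, against 149 and 144 CPM (0.35 ± 0.048, adjusted p = 0.000519). Psmb11, the catalytic subunit of the thymus proteasome, stayed low in both groups, with 4.68 and 4.84 CPM against 5.35 and 4.5 CPM (-0.05 ± 0.19, adjusted p = 0.869). With the T cell list as the scale, Psma3, Psma6 and Psmb1 were lost (adjusted p = 0.105, 0.0631 and 0.128).

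**Figure D4:**
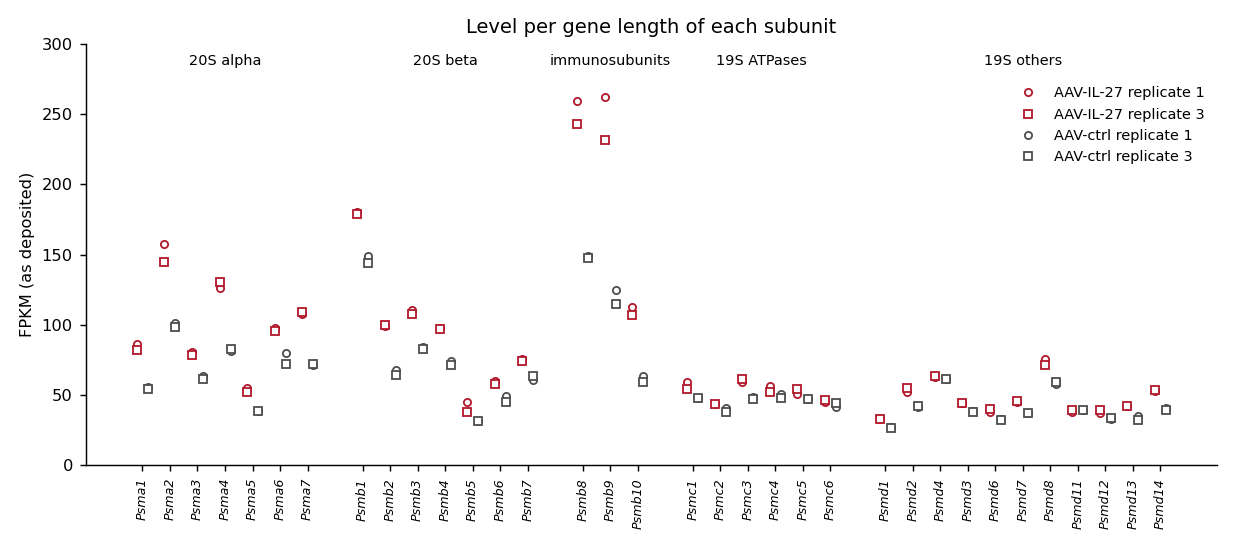
FPKM as deposited (vertical axis from 0) of the subunits of the core, the immunosubunits and the 19S cap; each point is a library. Psmb5 is the lowest of the beta subunits at 45.2 and 38.1 FPKM in AAV-IL-27 and 31.5 and 31.6 FPKM in AAV-ctrl, and the 19S ATPases stay between 38.2 and 61.7 FPKM in all libraries.

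Subunits of the same particle differed in level per gene length. Among the 7 alpha subunits, Psma5 was lowest and Psma2 highest in every library, at 55.1 and 157 FPKM in AAV-IL-27 replicate 1 and 39.0 and 101 FPKM in AAV-ctrl replicate 1. Among Psmb1 to Psmb7, Psmb5 was lowest and Psmb1 highest in every library, 3.99 and 4.71 times apart in AAV-IL-27 and 4.74 and 4.54 times apart in AAV-ctrl. Immunosubunits can take the places of Psmb5, Psmb6 and Psmb7, so these need not sit in cores in the same number as Psmb1. Among Psmb1 to Psmb4 alone, the highest was 1.84 and 1.85 times the lowest in AAV-IL-27 and 2.21 and 2.24 times in AAV-ctrl. The 6 ATPases lay closer together, with the highest 1.36 and 1.42 times the lowest in AAV-IL-27 and 1.255 and 1.251 times in AAV-ctrl. Psmb8 stood at 259.7 and 243 FPKM in AAV-IL-27 and 149 and 148 FPKM in AAV-ctrl, and Psmb9 at 262 and 232 FPKM and 125 and 115 FPKM. In AAV-IL-27 both immunosubunits lay above every constitutive core subunit, of which Psmb1 was highest at 180.5 and 179 FPKM. In AAV-ctrl, Psmb8 lay close to Psmb1 (149 and 144 FPKM), and Psmb9 lay below it.

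For the 19S cap, 5 of 6 ATPases and 9 of 14 Psmd genes rose, where 21.3% of all genes rose. Their medians were 0.20 and 0.29 on the log2 scale, against 0.46 for the 14 constitutive core genes. The 14 Psmd genes include 3 chaperones that are not part of the complete cap, with a median of 0.17. Of the other Psmd genes, the 3 of the base had a median of 0.36 and the 8 of the lid one of 0.32. The ATPase Psmc3 had 98.6 and 102 CPM in AAV-IL-27 replicates 1 and 3, against 78.0 and 75.6 CPM in AAV-ctrl (0.39 ± 0.053, edgeR adjusted p = 0.000493), and Psmc1 had 90.5 and 82.8 CPM, against 69.8 and 70.2 CPM (0.31 ± 0.060, adjusted p = 0.00357). At the low end of the ATPases, Psmc4 had 81.7 and 76.0 CPM, against 71.0 and 66.6 CPM (0.20 ± 0.063, adjusted p = 0.0333). Psmc6 had 71.4 and 74.1 CPM, against 63.9 and 67.9 CPM, and did not pass (0.14 ± 0.059, adjusted p = 0.0864). None of the 6 overlapped between groups, where 71.5% of all genes did not overlap. The other ATPases, Psmc2 and Psmc5, rose by 0.20 and 0.21.

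Of the 8 members that belong to the lid, the part of the cap that removes ubiquitin chains, 7 rose, where 21.3% of all genes rose. Psmd14, the enzyme that cuts the chain off, had 82.9 and 83.6 CPM in AAV-IL-27, against 61.9 and 59.5 CPM in AAV-ctrl (0.46 ± 0.056, adjusted p = 0.000239). The exception was Psmd11, at 88.8 and 91.2 CPM against 92.4 and 90.9 CPM, with groups that overlapped (-0.03 ± 0.052, adjusted p = 0.721). The other lid members, Psmd3, Psmd6, Psmd7, Psmd8, Psmd12 and Psmd13, rose by 0.24 to 0.38.

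In the base, the scaffold subunit Psmd2 had 159 and 166 CPM, against 122 and 124 CPM (0.40 ± 0.049, adjusted p = 0.000249), and Psmd1 rose by 0.36 ± 0.050 (adjusted p = 0.000515). The ubiquitin receptor Psmd4 had 85.2 and 85.4 CPM, against 79.5 and 79.8 CPM, and did not pass (0.10 ± 0.052, adjusted p = 0.163).

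Psmd5, Psmd9 and Psmd10 are chaperones that help to build the base and leave before the cap is complete, and none of the 3 passed. Psmd5 had 38.4 and 38.7 CPM in AAV-IL-27, against 37.0 and 39.4 CPM in AAV-ctrl (0.01 ± 0.070, adjusted p = 0.899). Psmd9 and Psmd10 stood at 0.21 ± 0.11 and 0.17 ± 0.11 (adjusted p = 0.156 and 0.235). Their counts were the lowest of the Psmd genes together with Psmd5, between 218 and 373 per library for Psmd9 and Psmd10, which limits what could be detected.

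Several calls in the cap were lost with 1 library fewer, as were calls over all genes. Without AAV-ctrl replicate 1, Psmc1 (adjusted p = 0.0502), Psmc2 (0.0709), Psmc4 (0.0878), Psmc5 (0.132), Psmd6 (0.0513) and Psmd12 (0.111) did not pass, and without AAV-ctrl replicate 3 neither Psmc2 (0.185), Psmc4 (0.247), Psmc5 (0.137), Psmd6 (0.063) nor Psmd12 (0.0769) did. Psmc4 also failed without AAV-IL-27 replicate 1 (0.128) and Psmc5 without AAV-IL-27 replicate 3 (0.0816), and by DESeq2 Psmc2 (0.14), Psmc4 (0.163), Psmc5 (0.152) and Psmd12 (0.0926) did not pass. The log2 fold changes stayed positive: without AAV-ctrl replicate 1 they were 0.24 for Psmc2, 0.24 for Psmc4, 0.32 for Psmd6 and 0.22 for Psmd12, and without AAV-ctrl replicate 3 they were 0.16, 0.15, 0.29 and 0.25 for the same 4 genes.

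The level of the core relative to the cap was higher in both AAV-IL-27 libraries than in either AAV-ctrl library. The summed FPKM of the constitutive core (Psma1 to Psma7 and Psmb1 to Psmb7) was 1.65 and 1.60 times that of 17 cap subunits in AAV-IL-27 replicates 1 and 3, against 1.398 and 1.376 times in AAV-ctrl. The mean log2 ratio was higher by 0.23 in AAV-IL-27 (exact permutation p = 0.333, the smallest possible), and this ratio was added after the data were seen.

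Of the 4 chaperones that assemble the core, Psmg4 alone passed as higher, where 21.3% of all genes did. It had 13.1 CPM in each AAV-IL-27 library, against 10.4 and 9.38 CPM in AAV-ctrl (0.41 ± 0.12, adjusted p = 0.0269). The call was lost on leaving out each of the 4 libraries (adjusted p = 0.0555 and 0.0511 without AAV-IL-27 replicates 1 and 3, and 0.0873 and 0.197 without AAV-ctrl replicates 1 and 3) and by DESeq2 (0.188). Its partner Psmg3 had 4.93 and 6.48 CPM, against 4.54 and 4.69 CPM (0.31 ± 0.20, adjusted p = 0.263). Psmg1 had 16.1 and 15.9 CPM, against 12.6 and 14 CPM (0.27 ± 0.11, adjusted p = 0.0799), and its partner Psmg2 had 19.4 CPM in each AAV-IL-27 library, against 19.1 and 19.4 CPM in AAV-ctrl (0.01 ± 0.087, adjusted p = 0.919). Psmc3ip, which matches by name only, had 3.92 and 3.90 CPM, against 2.99 and 3.19 CPM (0.34 ± 0.21, adjusted p = 0.241).

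Genes that work with the proteasome went both ways. Of 28 companion genes in the table, 11 rose, 2 fell and 15 did not pass, where 21.3% of all genes rose and 17.7% fell (median log2 fold change 0.08, against -0.01 for all genes). Pomp, the chaperone that completes the core and is used for cores with immunosubunits, changed most, with 103 and 102 CPM in AAV-IL-27, against 64.8 and 65.6 CPM in AAV-ctrl (0.65 ± 0.052, adjusted p = 1.6e-05). Vcp, the ATPase that extracts tagged proteins from complexes, had 401 and 399 CPM, against 292 and 298 CPM (0.44 ± 0.045, adjusted p = 8.43e-05), and Uba1, the enzyme that activates ubiquitin, had 459.5 and 473 CPM, against 380.3 and 378 CPM (0.30 ± 0.045, adjusted p = 0.000884). Among the ubiquitin genes, the polyubiquitin gene Ubb had 1742 and 1588 CPM, against 1299 and 1312 CPM (0.35 ± 0.051, adjusted p = 0.000708). The shuttle factor gene Ubqln4 fell, with 54.6 and 53.8 CPM, against 66.5 and 69.9 CPM (-0.33 ± 0.060, adjusted p = 0.00229). Nfe2l1, whose product raises proteasome genes when the proteasome is inhibited, had 88.4 and 90.8 CPM, against 99.8 and 96.6 CPM, and did not pass (-0.13 ± 0.052, adjusted p = 0.0716).

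With the T cell list as the scale, Ubb and Uba1 were lost (adjusted p = 0.101 and 0.227). With either AAV-ctrl library left out, fewer companions rose and fewer fell, and the same held for all genes.

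Of 16 genes of the interferon-gamma axis and of MHC class I loading, 13 rose, 2 fell and Ifngr1 did not pass, where 21.3% of all genes rose and 17.7% fell (median log2 fold change 0.52, against -0.01). Irf1, which binds promoters of immunosubunit genes, had 546 and 510.0 CPM in the AAV-IL-27 libraries, against 241 and 238 CPM in AAV-ctrl (1.14 ± 0.051, adjusted p = 5.04e-07). Ifng, the cytokine itself, had 45.5 and 40.8 CPM, against 7.46 and 7.13 CPM (2.56 ± 0.099, adjusted p = 2.24e-07), and Nlrc5, which drives transcription of class I genes, had 658 and 627 CPM, against 368 and 363 CPM (0.81 ± 0.047, adjusted p = 2.22e-06).

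The 2 that fell encode parts of the receptor for interferon-gamma and its signalling. Not all such parts fell: the kinase gene Jak2 rose (0.31 ± 0.065, edgeR adjusted p = 0.00595) and the receptor gene Ifngr1 did not pass. Ifngr2, the second chain of that receptor, had 37.0 and 46.9 CPM, against 76.1 and 68.1 CPM (-0.78 ± 0.12, adjusted p = 0.00247). Jak1, the kinase that the receptor uses together with Jak2, had 981 and 912 CPM, against 1123 and 1185 CPM (-0.29 ± 0.052, adjusted p = 0.0023), a call lost on leaving out AAV-ctrl replicate 3 (adjusted p = 0.057).

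**Figure D5:**
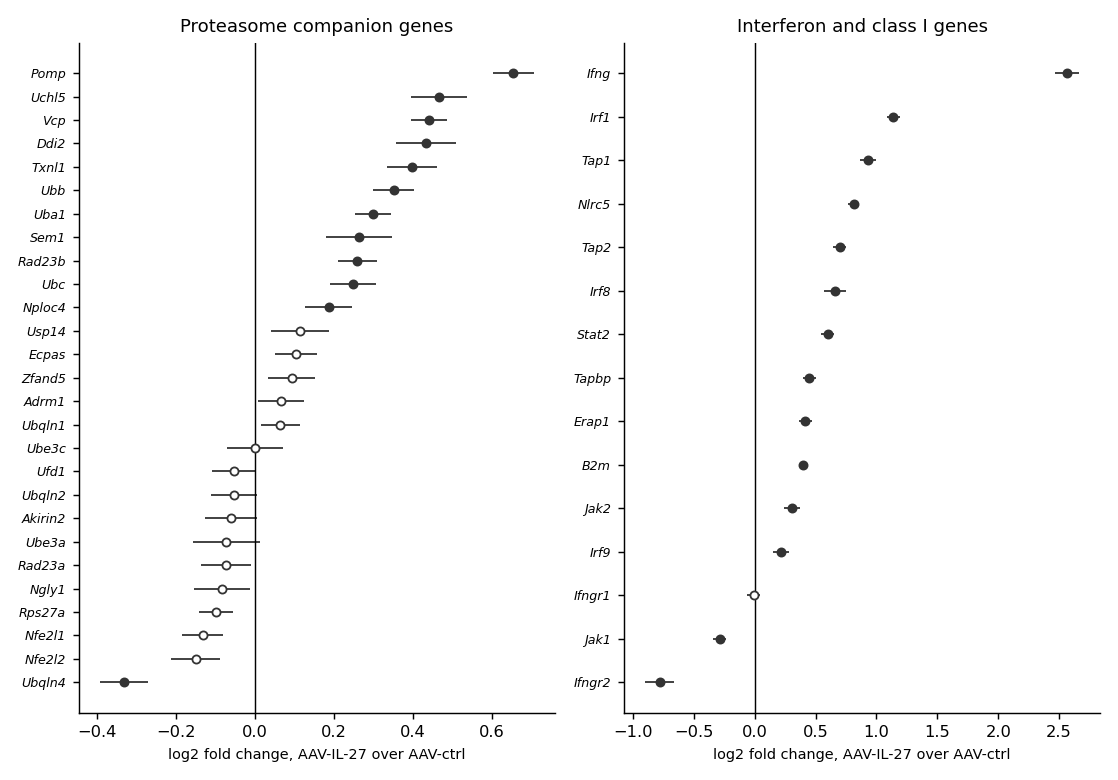
The log2 fold change (AAV-IL-27 over AAV-ctrl, horizontal axis) of proteasome companion genes and of interferon and class I genes, each list without 1 gene that is not reported here, with its standard error as a bar; filled points passed an adjusted p of 0.05 and open points did not. Pomp lies highest of the companions at 0.65 and Ubqln4 lowest at -0.33, and of the other list Ifng lies highest at 2.56 and Ifngr2 lowest at -0.78.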

How the data were processed

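Splenic T cell RNA of 4 mice was sequenced, 2 per group, per the labels. The authors deposited expected counts per gene that need not be whole (64.9% to 65.1% of values per library are), and a second set of columns taken as FPKM, deposited by the authors without a unit in the file headers; the unit was inferred because over 8244 genes the median value per count was inverse to the library total. Tools named in the submitters' processing notes, without their roles, are HISAT2 2.0.4, Bowtie2 2.2.5, RSEM 1.2.12 and DESeq2 1.4.5, with the build GRCm38.p6. The authors' group means were not used.

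Expected counts were rounded. Genes were filtered with filterByExpr, scaled by TMM and compared with edgeR 4.0.16 in R 4.3.3 (robust quasi-likelihood fit, no block, two-sided, Benjamini-Hochberg adjustment over all 12887 genes tested). The standard error is the log2 fold change divided by the square root of F. CPM are TMM-scaled. FPKM served only to compare levels between genes and for ratios within a library. Each library comes from its own mouse, as the design text speaks of 4 mice. Replicate counts differed by more than sampling gives, with chi-square over degrees of freedom at 6.79 (AAV-IL-27) and 2.55 (AAV-ctrl). Exons of 8 members overlap, on the opposite strand, exons of another gene in the table, and strand use was not stated. Exons of 1 member, Psme2b, overlap those of another gene in the table on the same strand. The labels name both polyA RNA and a library made by ribosomal RNA removal.

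Named were all immunosubunits, their counterparts, activators, the inhibitor and assembly factors, the 2 highest and 2 lowest members of each larger group, and from each companion list the 4 smallest p and those that fell. Other genes named, such as Tap1, Tap2, Psmd1 and Nfe2l1, were added after their values were seen. The members and lists were chosen with earlier results of these data known. Alternatives were DESeq2 1.42.0, 3 other scalings, no filter, a replicate block and leaving out each library. Paaf1, 3 T cell markers and 1 erythroid marker were not analysed here. From each of the companion and interferon lists, 1 gene that the naming rule takes is counted but not reported here by name.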

Additional observations from a re-analysis of the deposited data

How the results depend on the processing

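The direction of all 35 rising members held under every alternative run. The within-library ratios were recomputed only from expected counts and with each library left out. The members that rose numbered 29 by DESeq2, 31 with upper-quartile factors or library size alone, 35 without the filter, and 26 to 34 with a library left out, but 15 when scaled to the T cell list; no member fell under any of these. By edgeR at an unadjusted p under 0.05, 0 members were lower. Over all genes, 2745 rose and 2278 fell, against 2004 and 1239 by DESeq2, 2362 and 2979 with upper-quartile factors, 2363 and 2975 with library size alone, 1516 and 2704 scaled to the T cell list, and 1646 to 2632 and 989 to 2254 with a library left out. Companions that rose numbered 4 scaled to the T cell list and 7 to 11 with a library left out. Companions that fell numbered 1 by DESeq2 or scaled to the T cell list, 5 with upper-quartile factors or library size alone, and 1 to 2 with a library left out. Genes of the interferon list that fell numbered 1 to 2 with a library left out. The cause of these shifts was not tested, beyond the fewer samples of a left-out library.

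Signs turned for members that did not pass: Psmd5 was at -0.0366 with upper-quartile factors, -0.0361 with library size alone, -0.111 scaled to the T cell list, and -0.0325 to 0.0598 with a library left out; Psmg2 at -0.0366, -0.0360 and -0.111 under the same 3 scalings; Psmd4 at -0.0266 and Psme2b at -0.0330 scaled to the T cell list; and Psmb11 at -0.168 to 0.0800 with a library left out. From expected counts, the log2 difference of the summed immunosubunit ratio was 0.51, against 0.56 from FPKM. The replicate block left 35 members rising and changed no call of a member. Replicate numbers do not mark a shared batch in the labels, and deviations of same-numbered libraries were not correlated (r = -0.00071).

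With 2 mice per group, small changes of low genes such as Psmg3, Psmd9 and Psmb11 were at the edge of what these libraries can show.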
